A study of Drosophila melanogaster with 120 samples.

Results

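The comparison set heads of 15-day-old unmated Drosophila melanogaster females against heads of 5-day-old females of the same populations. It used 21 of the 120 arrays of the study, 11 heads of day 5 and 10 heads of day 15, taken by tissue and age from the sample labels. All populations came from 1 ancestral stock of wild-caught females, and the flies were kept at 25 °C. Control populations had been bred by mating at 14 days of age, and selection populations by mating at 28 and later at 40 days, for 35 generations. Each regime had 3 independent populations, each sampled with 2 biological replicates per age. Of the 24 heads of these ages, 3 were left out because they correlated poorly with other heads: control population 2 on day 15, replicate 2, and selection population 3 on days 5 and 15, replicate 1. Day 15 of control population 2 and both days of selection population 3 therefore rest on 1 array each.

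In Drosophila the first days after emergence complete adult development: the cuticle hardens, remnant larval fat cells are cleared and the adult fat body takes over. The head holds the brain and the eyes together with fat body, muscle and cuticle, so a whole-head profile mixes these tissues. Head transcript profiles of flies are known to go on changing through adult life. In a bulk sample, fewer cells of a type and less RNA per cell cannot be told apart.

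Levels are log2 intensities of a 1-colour array, so a difference of 1 is a 2-fold difference. Each of the 16637 features is a transcript with a FlyBase number, and 16 of them could be tied to a single gene symbol through synonyms in the RefSeq gene table. The deposited values do not pair the other numbers with genes, so those transcripts are given by number only, and none of the head or body cell markers chosen for a check of the tissue was among the 16. The 21 heads had a median correlation across transcripts of 0.944 to 0.984 with the other heads of these days and of 0.709 to 0.744 with the abdomens. Array medians lay between 9.45 and 9.96 on day 5 and between 9.77 and 9.94 on day 15. The left-out day-5 head of selection population 3 correlated at 0.967, above 4 arrays that were kept (0.944 to 0.965), 2 of each day. Without all heads under 0.97, 17 arrays remained, and results on those are given below. Over the 12 averages of population and day, population accounted for 54.9% of the sum of squares with 5 degrees of freedom, day for 11.4% with 1, and the differing change of the populations for 33.7% with 5.

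Few head transcripts were called as changed between days 5 and 15. After averaging replicates and pairing the days by population, 38 of the 16637 transcripts (0.228%) passed an adjusted p of 0.05 in limma, 14 that rose (0.0841%) and 24 that fell (0.144%). An unadjusted p under 0.05 was reached by 1395 transcripts (8.38%). The median transcript changed by 0.0754 in absolute log2 size. A 2-fold mean change was seen in 33 transcripts, of which 17 passed, 6 of the risers and 11 of the fallers. For 99.1% of the transcripts the 95% interval of the change lay within 2-fold in both directions. The count was 51 on the 17 arrays, 36 of them among the 38. It fell to 24 when selection population 2 was left out and reached 60 when selection population 1 was, and with all 24 heads it was 25, of which 23 were among the 38.

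**Figure D1:**
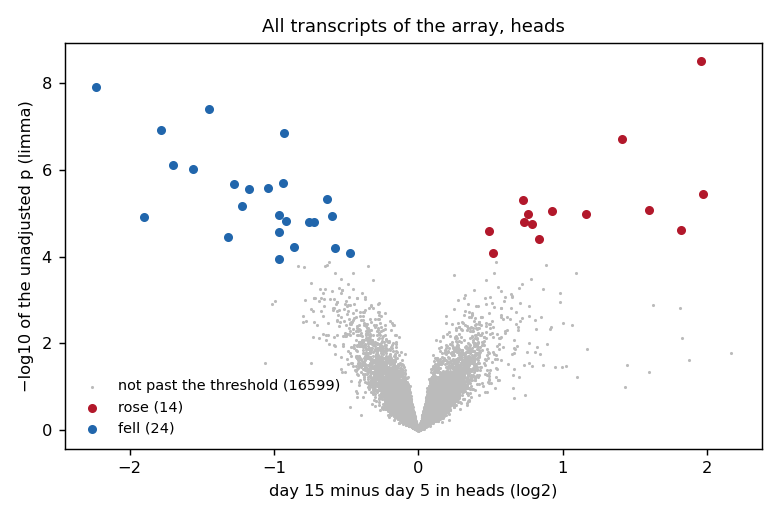
Change from day 5 to day 15 in heads (log2, horizontal axis) against −log10 of the unadjusted limma p (vertical axis) for each of the 16637 transcripts. The 14 transcripts that rose (red) and the 24 that fell (blue) stand apart from the others (grey), and the farthest lie near 2 on either side.

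The transcript with the clearest rise was FBtr0082621. Its log2 level ran from 8.16 to 9.83 with a median of 8.91 in the 11 heads of day 5, and from 10.36 to 11.67 with a median of 10.85 in the 10 heads of day 15. Every day-15 head thus stood above every day-5 head. Averaged over populations, the level went from 8.97 ± 0.333 to 10.93 ± 0.302 (SD, n = 6), a change of 1.96 ± 0.133 (SE; limma adjusted p 5.22e-05). The 6 populations rose by similar amounts, from 1.46 in control population 2 to 2.23 in selection population 1.

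FBtr0113330 rose by as much on average, 1.97 ± 0.25 (SE; limma adjusted p 0.00469), but unevenly. Its level ran from 8.04 to 11.29 (median 8.85) on day 5 and from 8.61 to 13.23 (median 11.23) on day 15, so the 2 ages overlapped. The heads of control and selection population 3 were already the highest on day 5, at 9.91 to 11.29, and both day-15 heads of control population 1 were low, at 8.61 and 9.66. Population changes ranged from 1.03 in control population 1 to 3.39 in selection population 1. The limma call ended without the pairing by population (adjusted p 0.516), with all 5 ages in the fit (0.162), without the intensity trend (0.0577) and on biological replicate 2 alone (1.88, adjusted p 0.205).

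The transcript with the largest fall was FBtr0078265. The 11 heads of day 5 lay between 13.30 and 14.75 (median 13.84) and the 10 heads of day 15 between 10.85 and 12.34 (median 11.66), without overlap. The mean over populations went from 13.88 ± 0.434 to 11.65 ± 0.384 (SD, n = 6), a change of -2.23 ± 0.170 (SE; limma adjusted p 0.000104). Population changes ran from -1.71 in selection population 1 to -3.16 in selection population 2.

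FBtr0079500 changed by -1.90 ± 0.271 (SE; limma adjusted p 0.00859). Its day-5 levels were spread widely, from 9.22 to 12.93 (median 11.09), while all day-15 heads lay between 8.73 and 9.46 (median 9.04). Both day-5 heads of selection population 1 (9.22 and 9.55) already stood near the day-15 levels, and that population changed by only -0.44. Control population 3, the highest on day 5 with a mean of 12.42, changed by -3.03. The limma call ended with all 24 heads (-1.65, adjusted p 0.087), without the intensity trend (0.0951) and on biological replicate 1 or 2 alone (adjusted p 0.254 and 0.0509).

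**Figure D2:**
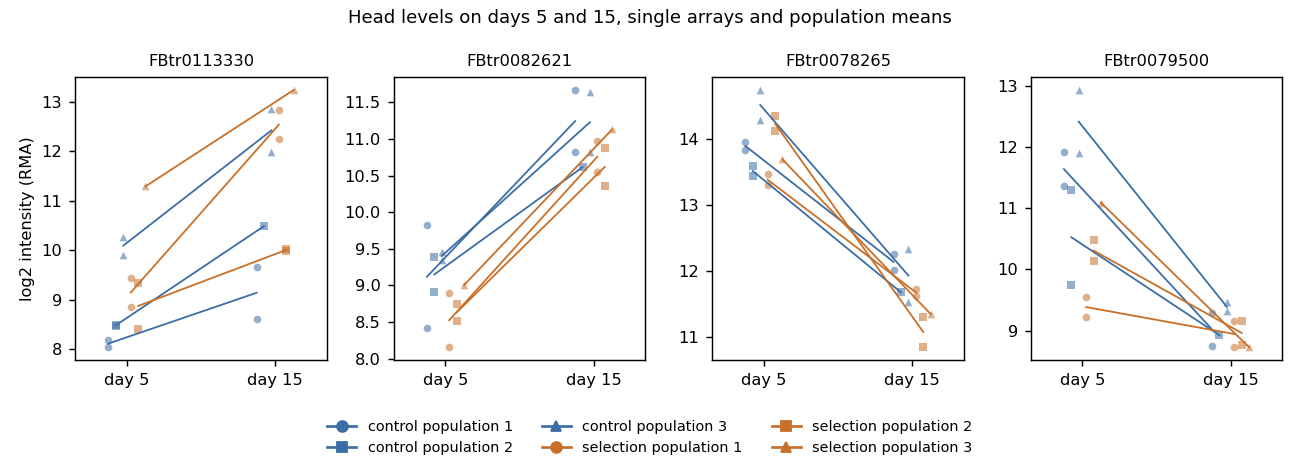
Log2 intensity of the 4 transcripts on days 5 and 15 in heads. Points are single arrays, lines join the population means, blue marks control and orange selection, and the marker shape gives the population number. FBtr0082621 and FBtr0078265 separate the ages completely, FBtr0113330 starts and ends at different levels by population, and FBtr0079500 is spread on day 5 and narrow on day 15.

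All 38 transcripts moved the same way in all 6 populations, as did 854 of all transcripts (5.13%; 2.59% upwards and 2.54% downwards). For 3 of the 14 risers and 8 of the 24 fallers no array of one age reached the range of the other age, which held for 12 of all transcripts (0.0721%). The test that called the 38 used these same arrays, so shared direction and separation are a description and add no support. The risers changed by 0.49 to 1.97 with a median of 0.88, and the fallers by -0.47 to -2.23 with a median of -0.97. The median change of the fallers was smallest in selection population 1 (-0.76) and largest in selection population 2 (-1.25), and that of the risers ran from 0.68 in control population 1 to 1.19 in control population 2. On day 5, 19 of the 24 fallers and 5 of the 14 risers lay above the median transcript (9.88), a level that is itself part of the change by which they were chosen. In the fallers, 6 numbers formed 2 runs of consecutive transcript numbers, 1 of which holds FBtr0079500, and no riser had such a neighbour. Whether a run stems from 1 gene or shared probes was not tested, so the 24 fallers may hold fewer than 24 independent measurements. None of the 38 was tied to a gene symbol.

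**Figure D3:**
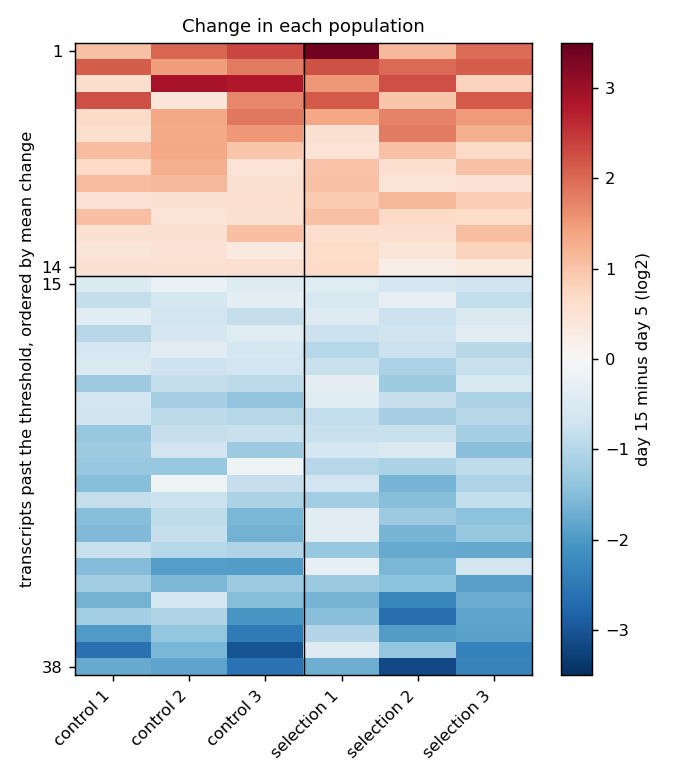
Change from day 5 to day 15 (log2, colour) of the 38 transcripts (rows, from the largest rise to the largest fall) in each of the 6 populations (columns). The rows above the line are the 14 risers and those under it the 24 fallers, and each row keeps 1 colour in all columns with differing depth.

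Levels at the other ages are given with all 12 heads of each age first. The median log2 level of the 24 fallers in heads was 12.75 on day 1, 11.62 on day 5, 10.16 on day 15, 10.08 on day 30 and 9.80 on day 50. Of these, 18 stood higher on day 1 than on day 5, and 18 stood lower on day 50 than on day 15. The median of the 14 risers was 8.79, 9.20, 10.91, 10.62 and 10.92 on the same days, with 8 lower on day 1 than on day 5 and 8 higher on day 50 than on day 15. Earlier results of these data had marked 5 heads as having the profile of another age: both of control population 3 on day 1, control population 3 replicate 1 and selection population 3 replicate 2 on day 30, and control population 2 replicate 1 on day 50. Without them the fallers stood at 13.27, 9.89 and 9.61 on days 1, 30 and 50 and the risers at 8.38, 11.25 and 11.11. The counts on day 50 were then 23 fallers lower and 12 risers higher than on day 15, and those on day 1 were 18 fallers higher and 11 risers lower than on day 5. Those 5 heads were picked by how their profile fitted their age, so values without them are a description that cannot serve as a check of an age difference. All these levels share the day-5 and day-15 arrays with the choice of the transcripts.

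Single transcripts had different levels at the other ages. With all heads, FBtr0078265 had a mean of 14.30 ± 1.40 on day 1, 11.44 ± 0.943 on day 30 and 11.06 ± 0.736 on day 50 (SD, n = 6), beside 13.88 and 11.65 on days 5 and 15. FBtr0079500 stood at 13.60 ± 2.49 on day 1, 10.89 on day 5 and 9.12 ± 1.10 on day 50 (SD, n = 6). FBtr0082621 stood at 10.10 ± 1.25 on day 1, above its day-5 mean of 8.97, and at 11.58 ± 0.617 on day 50 (SD, n = 6). FBtr0113330 stood at 8.55 ± 0.794 on day 1, 10.56 ± 1.34 on day 30 and 10.73 ± 1.38 on day 50 (SD, n = 6). Its day-15 mean of 11.30, like all day-5 and day-15 means here, is that of the kept heads. Without the heads marked by their profile, it stood at 11.20 ± 1.64 on day 30, near day 15, and 10.76 ± 1.33 on day 50 (SD, n = 6). FBtr0079500 then stood at 14.61 ± 0.39 on day 1 (SD, n = 5). FBtr0078265 stood at 10.89 ± 0.196 on day 30 (SD, n = 6). The spread was thus narrower without the marked heads in these, but wider for FBtr0113330 on day 30.

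Heads of days 30 and 50 share no array with the early comparison. With all 24 heads of these ages, limma called 0 transcripts from day 30 to day 50, and 396 (2.38%) had an unadjusted p under 0.05. Among the fallers, 23 of 24 had a lower mean on day 50, as had 52.8% of all transcripts, with a median change of -0.35. Among the risers, 13 of 14 had a higher mean, as had 47.2% of all transcripts, with a median change of 0.42. Without the 3 heads of these ages marked by their profile, the counts were 23 of 24 (55.3% of all transcripts lower) and 9 of 14 (44.6% higher), and the medians -0.15 and 0.16. The day-30 medians lay nearer the day-5 levels with all heads (fallers 10.08, risers 10.62) than without the marked ones (9.89 and 11.25). The changes with all heads thus rest in part on the marked heads. In that fit limma called 10 transcripts (0.0601%), 9 higher (0.0541%) and 1 lower (0.00601%), with 682 (4.1%) at an unadjusted p under 0.05, and none of the 10 was among the 38. Since the 3 heads were left out by their age profile and the calls were absent with all heads, the 10 are not given as changes with age. The named ones were FBtr0091895, at 1.27 with all heads and 1.48 without the 3, FBtr0085926, at 1.27 and 1.41, and the 1 lower, FBtr0086963, at -0.97 and -0.94. The first pair was bright in abdomens (14.35 and 14.23 on day 50), and the part of abdominal material in these values was not tested. Leaving out populations as well gave 14 calls for control population 1, 14 for selection population 1 and 5 for control population 2. It gave 4 for selection population 2, 3 for control population 3 and 4 for selection population 3.

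**Figure D4:**
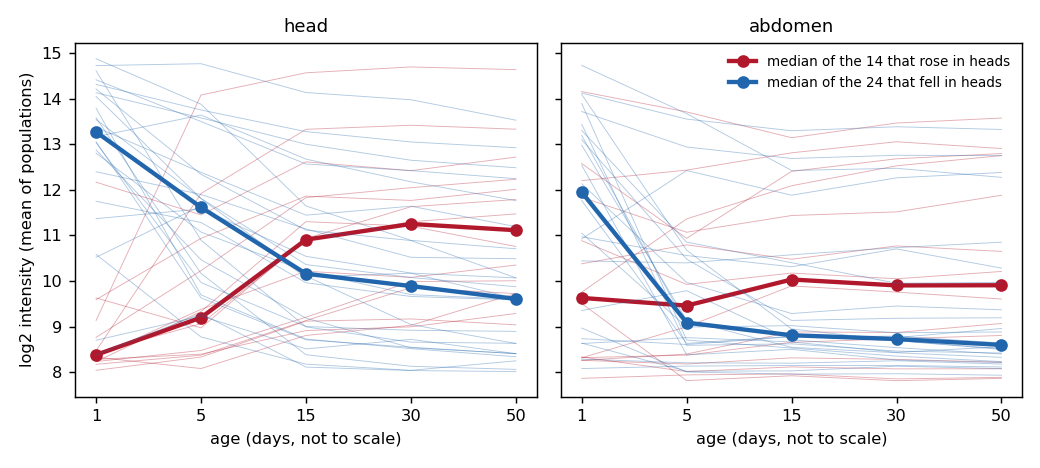
Log2 intensity over the 5 ages (evenly spaced, not to scale) in heads (left) and abdomens (right) for the 38 transcripts. Thin lines are single transcripts as means of populations, and thick lines with points are the medians of the 14 that rose and the 24 that fell in heads. The 5 heads marked by their profile are left out here; the blue head median is 13.27 on day 1 and 9.61 on day 50, the red 8.38 and 11.11, and the abdominal blue median 11.95 and 8.60.

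In abdomens of the same populations, 24 arrays in the same limma fit gave 0 transcripts past the threshold between days 5 and 15. An unadjusted p under 0.05 was reached by 1041 (6.26%). The smallest p belonged to FBtr0087920, at -1.25 ± 0.142 (SE; limma adjusted p 0.0784), which is also a faller in heads (-0.93). Of the fallers in heads, 16 of 24 had a lower mean in abdomens on day 15 (44.0% of all transcripts), and 7 of them reached an unadjusted p under 0.05. Of the risers, 12 of 14 had a higher mean (56.0% of all transcripts), of which 3 reached it, while 1 riser reached it with a lower mean. The median abdominal change was -0.19 for the fallers and 0.26 for the risers. The median abdominal level of the fallers had been 11.95 on day 1, and was 9.09 on day 5 and 8.81 on day 15. Their abdominal level was thus mostly lower before the days compared here. The risers stood at 9.63, 9.46 and 10.03 on the same days. No abdomen was left out, and control population 2 weighed on some of these means. There FBtr0080557, FBtr0080558 and FBtr0080559 changed by 1.69, 1.40 and 1.78, with means over populations of 0.12, 0.03 and 0.16. Some other fallers fell most there, such as FBtr0113713 (-2.19, mean -1.35). In day-5 abdomens, 16 of the 24 fallers and 3 of the 14 risers were at least 2-fold dimmer than in day-5 heads, against 11.8% of all transcripts, and 1 faller and 3 risers were at least 2-fold brighter, against 24.5%. The day-5 head level is part of what chose these transcripts, so these shares are a description. Leaving out control population 2 gave 33 calls in abdomens, and leaving out selection population 2 gave 1.

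The change differed between head and abdomen for 2 transcripts (0.012%), while 1010 (6.07%) had an unadjusted p under 0.05 in limma. FBtr0082621 changed by 1.96 ± 0.281 in heads and by 0.11 ± 0.188 in abdomens (SD, n = 6), a difference of 1.85 ± 0.196 (SE; adjusted p 0.0206). In abdomens it stood at 9.50 ± 1.03 on day 1 (SD, n = 6) and at 7.82 on day 5, by then among the dim transcripts of these arrays. FBtr0080350 changed by 0.03 ± 0.180 in heads, where it stood at 7.64, and by -1.17 ± 0.5 in abdomens (SD, n = 6), a difference of 1.2 ± 0.146 (SE; adjusted p 0.0403). Its abdominal level had been 14.40 on day 1 and 9.41 on day 5. Both calls ended when any 1 of control populations 1 and 3 or selection populations 2 and 3 was left out (limma adjusted p 0.137 to 0.287 for FBtr0082621 and 0.238 to 0.366 for FBtr0080350). Leaving out selection population 1 gave 6 calls and control population 2 gave 4.

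Whether selection for a longer reproductive lifespan altered the early change was tested with the interaction of regime and day. The limma test called 0 transcripts, and 1329 (7.99%) had an unadjusted p under 0.05, and the smallest adjusted p was 0.566. The share at an unadjusted p under 0.05 depended on the arrays: it was 1.69% with all 24 heads, 3.96% without heads under 0.97, 3.37% on biological replicate 1 alone, and 4.03%, 13.7% and 4.45% when selection population 1, 2 or 3 was left out. For 87.2% of the transcripts the 95% interval of the difference lay within 2-fold. Within control heads 5 transcripts passed (0.0301%) and within selection heads 14 (0.0841%), which the interaction test does not show to differ. Among the 38, an unadjusted p under 0.05 for the regime difference was reached by 1 riser and 2 fallers. The risers had a median change of 1.02 in control and 0.92 in selection, and the fallers of -0.99 in each. Taken transcript by transcript, 10 of the 14 risers and 12 of the 24 fallers changed more in selection. The median of selection minus control was 0.08 for the risers and -0.02 for the fallers, against -0.01 over all transcripts. The 38 were called on the mean change of all populations, which disfavours transcripts that differed between regimes. Their regime values are therefore a description. FBtr0079500 differed most among the 4 transcripts described above, with -2.42 ± 0.735 in control and -1.38 ± 0.962 in selection (SD, n = 3). FBtr0082621 changed by 1.80 ± 0.331 and 2.12 ± 0.123 (SD, n = 3). When selection population 2 was left out, 1 transcript passed.

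The smallest p of the regime difference belonged to FBtr0100879, which changed by -0.42 ± 0.0239 in control and by 0.59 ± 0.187 in selection (SD, n = 3; limma adjusted p 0.566). FBtr0113000 changed by 0.87 ± 0.104 in control and by -0.37 ± 0.178 in selection (SD, n = 3; limma adjusted p 0.612). In both, all 3 populations of a regime moved one way and all 3 of the other regime the opposite way, but neither difference passed.

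None of the 16 transcripts with a gene symbol passed. Their changes lay between -0.19 and 0.43, 8 positive and 8 negative, and 2 reached an unadjusted p under 0.05. The transcript of sle, slender lobes, a nucleolar protein known from brain development, ran from 9.35 to 11.31 (median 11.00) on day 5 and from 10.45 to 11.80 (median 11.34) on day 15. The ages overlapped, and the change was 0.43 ± 0.147 (SE), positive in 5 of 6 populations, and the limma adjusted p was 0.39. That of SuUR, a chromatin protein known for suppressing DNA replication in polytene chromosomes, ran from 9.79 to 11.60 (median 11.10) and from 10.78 to 12.33 (median 11.41). Its change was 0.41 ± 0.148 (SE), positive in 6 of 6 populations, and the limma adjusted p was 0.434.

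Of the 10 chromatin genes listed, 4 were named on the array, 0 passed in either direction, and their median change was 0.22, against 0.00 over all transcripts. Besides SuUR these were kis, a CHD-family chromatin remodeller, with 0.35 ± 0.208 (SE) and populations from -0.41 to 1.33, HDAC3, a histone deacetylase, with 0.08 ± 0.0939 (SE), and His4r, a replacement histone H4, with -0.06 ± 0.0673 (SE). The median of the 4 was 0.30 in control and 0.10 in selection heads. Control population 3 had 1.33 for kis, 0.83 for SuUR, 0.16 for HDAC3 and -0.12 for His4r. Its day-5 replicate 1 was the kept head of lowest correlation (0.944) and lowest array median (9.45). The part of that head in these values was not tested.

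The other genes stood closer to 0 or varied widely between populations. The subunits of GATOR2, a complex that relays amino acid supply to TOR signalling, had changes of 0.10 ± 0.115 (Wdr24) and -0.03 ± 0.139 (mio; SE). In the ubiquitin pathway, Uba1, the ubiquitin-activating enzyme, had 0.14 ± 0.156, and rdx, an adaptor of a Cullin ligase, had 0.05 ± 0.161 (SE), with populations from -0.55 to 0.93 and from -0.61 to 0.84. LanA, a laminin chain of the basement membrane, had 0.12 ± 0.108, and alpha-Spec, of the membrane skeleton, had -0.06 ± 0.139 (SE). Fatp1, a fatty acid transport protein, had -0.13 ± 0.124, and fend, known from motor axon guidance, had -0.19 ± 0.133 (SE), the lowest of the 16. NaPi-III (-0.04 ± 0.0930), CG16974 (-0.03 ± 0.114) and CG31178 (-0.05 ± 0.0444; SE) complete the set, CG31178 at a dim day-5 level of 7.55. The 95% intervals of these changes lay between -0.48 and 0.81 for all 16.

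**Figure D5:**
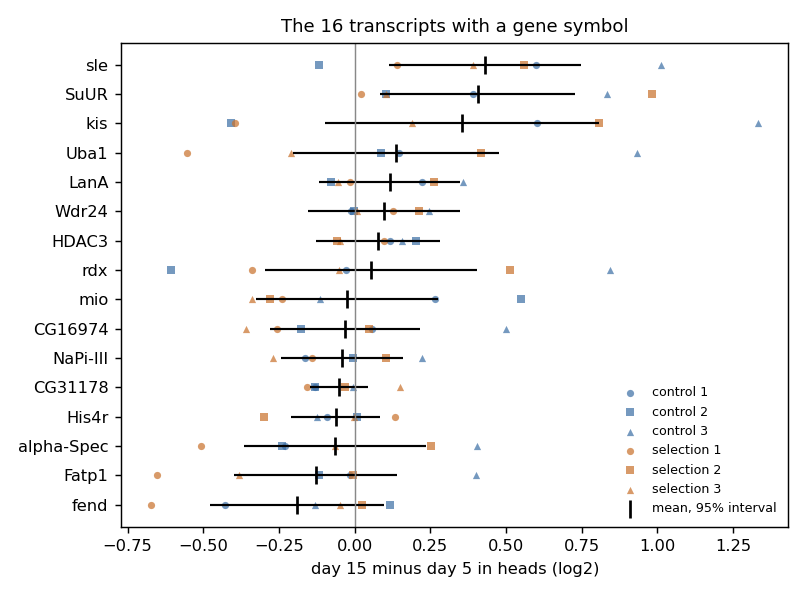
Change from day 5 to day 15 in heads (log2) of the 16 transcripts with a gene symbol. Coloured points are the 6 populations, the black tick is their mean and the black line its 95% interval from limma. The intervals of sle and SuUR alone exclude 0, and neither passes after adjustment over 16637 transcripts.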

How the data were processed

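The deposited values are log2 intensities made by the authors with RMA, per the submitters' processing notes. Not given in the sources used here: the RMA version, the genome build, the annotation release and which arrays were normalized together. The number of arrays limits the precision. In limma the variance of each transcript was drawn towards that of transcripts of similar intensity. The SEs, intervals and p-values therefore rest only in part on the spread between populations. An SE can be smaller than that spread alone would give, as for FBtr0113330 (SE 0.25, SD of the 6 population changes 0.865). It can also be larger, as for HDAC3 (SE 0.0939, SD 0.108). Replicate arrays were averaged within population and day, and the 12 averages were fitted in limma 3.58.1 (R 4.3.3) with population as a block and an intensity trend, two-sided, with Benjamini-Hochberg adjustment over 16637 transcripts. The regime difference was the interaction term, and the tissue difference was tested on the 6 head minus abdomen changes. The population is the same line on both days per the labels. Deviations of a population from the day means correlated between days at -0.0945 to 0.5, and in 3 of 6 populations (selection 1, control 2 and control 3) a different population of the other day correlated better (0.602, 0.318 and 0.325). The fits were tested on simulated averages with independent noise for each transcript, so differences shared by the transcripts of an array were not part of that test. Chosen for naming were all 16 transcripts with a symbol and, per contrast, up to 2 each way without one. The latter were taken by largest change among those past the threshold and alike in all populations, or else by smallest p. Of those taken by smallest p, only the first each way of the regime difference and the first fall in abdomens are described for their contrast. Of 12 gene lists, 1 held 3 or more named transcripts. The contrast, the left-out arrays and the lists were chosen with earlier results of these data known.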

Additional observations from a re-analysis of the deposited data

Results flagged for a closer look

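The day 15 minus day 5 change differed between head and abdomen, by the test of the difference itself, for FBtr0082621 (head minus abdomen 1.85 on the log2 scale, limma adjusted p 0.0206, positive in 6 of 6 populations) and for FBtr0080350 (1.2, limma adjusted p 0.0403, positive in 6 of 6 populations). The mean change lay mainly in heads for the first and in abdomens for the second, though no transcript passed in abdomens alone. Each was dim in the other tissue (7.82 and 7.64 on day 5). Over the alternatives the limma adjusted p ran from 0.00121 to 0.287 for FBtr0082621 (16 alternatives, 7 of which ended the call) and from 0.00293 to 0.839 for FBtr0080350 (15 alternatives, 10 of which ended it). No population stood out from the other 5 in any of 20 tests on the changes of the 4 transcripts described in detail and the 16 with a symbol. Chance alone would mark about 1 in 20.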

How the results depend on the processing

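Of 20 alternatives for the count of 38 head transcripts, 11 stayed within 1.5 times of it, among them quantile normalization (37) and median centring (38). The count was 25 with all 24 heads, 25 among transcripts brighter than the median one, 22 without the intensity trend, and 6 or 15 with biological replicate 1 or 2 alone, where 1 array used as replicate 1 (control population 3, day 15) has a title that calls it replicate 3. Leaving out populations gave 24 to 60. Without the population block it was 28. With population and biological replicate number as a replicate block on single arrays it was 86, and with population as a random block 82, where arrays of a population count almost as independent (correlation 0.0912). The regime difference stayed at 0, also with population number as a replicate block, except 1 without selection population 2. The tissue difference (2) was 1 after quantile normalization, 0 after median centring, 0 without the trend, 1 with a robust prior, 1 or 0 with replicate 1 or 2 alone, and 0 to 6 without a population. Days 30 to 50 (10) gave 0 with all heads and 3 to 14 without a population, and abdomens (0) gave 0 to 33. The cause of these shifts was not tested. The settings without heads under a correlation of 0.97 (51) and with the 2 lowest heads left out (34), and the levels with all heads of other ages, were chosen after seeing the data. FBtr0082621 and FBtr0078265 passed in all 20 alternatives, and FBtr0113330 and FBtr0079500 in 16. None of the 16 named genes passed in any, and 6 kept their sign in all (fend, His4r, kis, sle, SuUR and Wdr24).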
